A study of Mus musculus with 4 samples.

Results

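Transcripts of 37 genes of astrocytes and neural stem cells were followed in neurospheres treated with olaparib or with its solvent. The genes were taken from a list of names that was chosen with earlier results of these data known. All 37 had a probe set of their own among the 19937 genes that the arrays resolve. Of the 37, 24 were grouped as mature astrocyte genes and 12 as stem and progenitor genes, from textbook knowledge of where they are expressed. The remaining gene, Rgr, encodes an opsin of the retinal pigment epithelium and retinal glia and was assigned to neither. Neurospheres are floating colonies grown from sphere-forming cells, here from the lateral walls of the lateral ventricles (the subventricular zone, SVZ) of C57BL/6 mice aged 9 to 12 weeks.

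The 2 olaparib arrays came from spheres treated with olaparib, a drug that blocks the poly(ADP-ribose) polymerases of DNA repair, at 100 nM in 0.01% DMSO, and the 2 DMSO arrays from spheres kept in 0.01% DMSO alone. Spheres of both groups had been transfected with non-targeting siRNAs and then exposed to pCLIG-Pax6 viral particles, so every array comes from cells given the neurogenic factor Pax6. They were cultured for 36 h in suspension, and differentiation was started by plating on laminin without growth factors 10 h before RNA isolation. The arrays are labelled as biological replicates, with no number of animals, so p-values measure the spread between these arrays. Values are the deposited log2 values, changes are olaparib minus DMSO on that scale, and the lower quartiles of the 4 arrays lay between 6.25 and 6.28. With 2 arrays a group, the precision of every value below is limited.

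Astrocytes and the stem cells of the adult SVZ are close relatives: the stem cells are themselves astrocyte-like cells that express glutamate transporters, connexins and glial enzymes. Astrocytes take up glutamate and GABA, convert glutamate to glutamine, buffer ions and water and are coupled by gap junctions. Activated stem cells and their progeny carry growth factor receptors such as EGFR and transcription factors of the SOX family, and lose the astrocyte programme as they turn into neuroblasts. Because most of these genes are shared between the stem cell and the astrocyte, their transcripts in a bulk sample do not separate the 2 cell types. Fewer cells of a type and less RNA per cell cannot be told apart in such samples either.

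Of the 37 genes, 35 lay above the signal at which genes were tested (a mean log2 value of 6.42, the 30th percentile), and Gjb6 and Thbs4 did not. With olaparib 8 of the 35 fell and 0 rose in limma at an adjusted p under 0.05, where 3.37% of all 13956 genes tested fell and 2.84% rose. At an unadjusted p under 0.05 there were 15 of the 35, of which 0 were higher, where 19.1% of all genes tested passed in either direction. The 8 were Rgr, which is in neither class, Mmd2, Aqp4, Ednrb, Clu, Mt3, Fgfr3 and Ntsr2. Because the list was chosen with earlier results of these data known, the shares above describe the list and do not test it. In 18 of the 35 genes both olaparib arrays lay under both DMSO arrays, as in 23.9% of all genes tested, and in 4 both lay over them, as in 23.2% of all genes. The other 13 overlapped. The median change of the 35 was -0.11, against 0.0013 over all genes tested, and 28 were negative. The number that fell depends on how the error is estimated and on the normalization, from 1 to 16 over the alternatives.

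**Figure D1:**
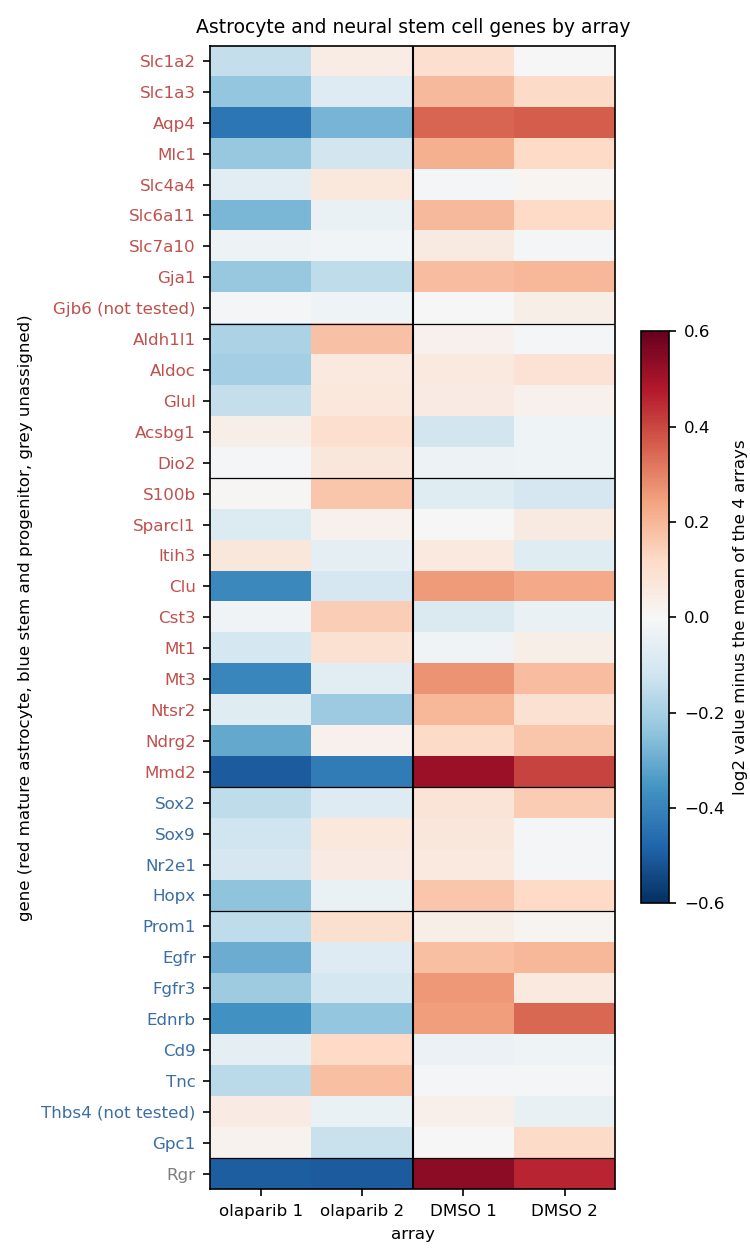
Log2 value of each of the 37 genes on each array (columns, olaparib left of the line and DMSO right of it) minus the gene's mean over the 4 arrays, with genes grouped by role. Rgr, Mmd2 and Aqp4 show the widest contrast between the groups, while in genes such as Aldh1l1 and Tnc the 2 olaparib arrays differ from each other more than the groups do.

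Transporters, channels and junction proteins of mature astrocytes lay on the negative side. All 8 tested were below 0, with a median change of -0.31, but 1 of the 8 passed the threshold. That was Aqp4, the water channel of astrocyte end-feet. It had values of 9.68 and 9.84 with olaparib, against 10.46 and 10.48 with DMSO. The groups did not overlap, and the DMSO pair agreed closely. Aqp4 fell by 0.71 (SE 0.12, adjusted p = 0.000703), and a linear scale puts its signal 38.9% below that of DMSO. It passed under 13 of 14 alternatives and reached an adjusted p of 0.0700 when all probe sets shared the error estimate.

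The glutamate transporters, which clear the transmitter from the synaptic cleft, gave different orders of the arrays. Slc1a3 (GLAST), the transporter that also marks SVZ stem cells, had 11.24 and 11.40 with olaparib, against 11.67 and 11.59 with DMSO. Its groups did not overlap, and its change of -0.31 (SE 0.12) had an adjusted p of 0.148 and a 95% interval of -0.57 to -0.06. Slc1a2 (GLT-1), the main transporter of mature astrocytes, had 9.68 and 9.87 with olaparib, against 9.93 and 9.82 with DMSO. Its groups overlapped, with a change of -0.10 (SE 0.12, adjusted p = 0.754) and an interval of -0.35 to 0.15, which still holds changes as large as that of Slc1a3.

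Gja1, which encodes the main connexin of astrocyte gap junctions, had 10.84 and 10.92 with olaparib, against 11.25 and 11.27 with DMSO. The groups were well apart, with a change of -0.38 (SE 0.12), yet the adjusted p was 0.0623. Gja1 passed under 7 of the 14 alternatives. Mlc1, an end-feet membrane protein whose loss causes a leukoencephalopathy in humans, differed by -0.34 (SE 0.12, adjusted p = 0.112). The GABA transporter gene Slc6a11 differed by -0.31 (SE 0.11, adjusted p = 0.115). In both genes the olaparib arrays lay under the DMSO arrays. The bicarbonate cotransporter gene Slc4a4 differed by -0.0065 (SE 0.11, adjusted p = 0.991) and the neutral amino acid transporter gene Slc7a10 by -0.05 (SE 0.08, adjusted p = 0.844). Slc7a10 lay between 6.64 and 6.72 on the 4 arrays. Gjb6, another astrocyte connexin gene, lay between 6.22 and 6.28 and was not tested.

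Of the 5 metabolic enzymes of astrocytes 0 passed, and their median change was -0.01. On each of the 5 the second olaparib array was above the first. That order was not particular to them: it also held in all 8 transporter, channel and junction genes tested and in 31 of the 35. Aldh1l1, the folate enzyme used as a pan-astrocyte marker, had 10.40 and 10.77 with olaparib, against 10.62 and 10.58 with DMSO. The olaparib arrays thus straddled the DMSO pair, and the change of -0.01 (SE 0.13, adjusted p = 0.981) had an interval of -0.29 to 0.26. Glul, the glutamine synthetase gene, differed by -0.08 (SE 0.12, adjusted p = 0.836), and its other, dimmer probe set by -0.13. The aldolase C gene Aldoc differed by -0.15 (SE 0.13, adjusted p = 0.619). Acsbg1, an acyl-CoA synthetase, differed by 0.14 (SE 0.11, adjusted p = 0.583), and Dio2, the deiodinase that activates thyroid hormone, by 0.06 (SE 0.08, adjusted p = 0.797). Whether the enzymes differ from the transporters in their response was not tested.

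**Figure D2:**
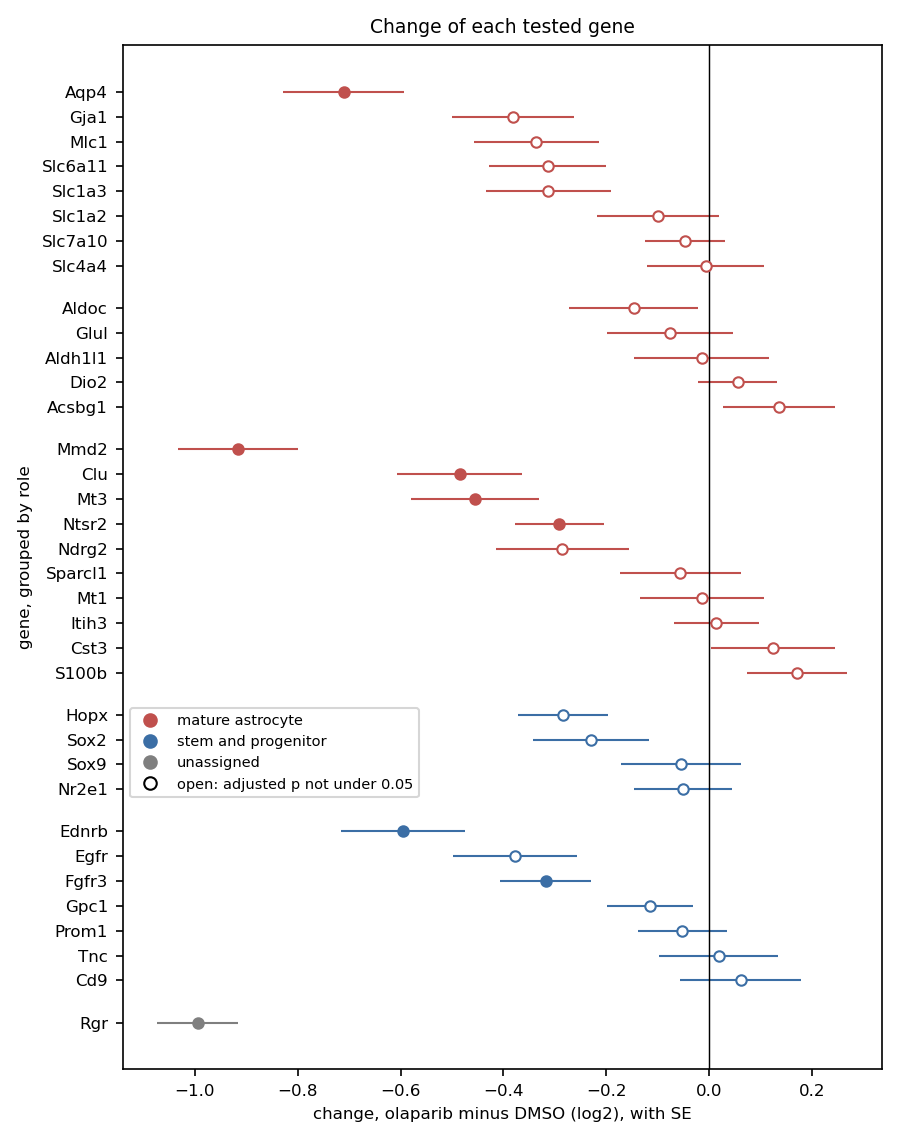
Change (olaparib minus DMSO, log2) of the 35 genes tested, with the standard error from limma, grouped by role from the transporters at the top to Rgr at the bottom. Filled points passed an adjusted p of 0.05, all of them on the left of 0, and the enzymes (second block) lie around 0.

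Of the 10 other astrocyte genes, 4 fell and 0 rose, with a median change of -0.17. Mmd2, a membrane protein of the progestin and adipoQ receptor family known in mouse astrocyte precursors, had 9.61 and 9.69 with olaparib, against 10.62 and 10.52 with DMSO. It fell by 0.92 (SE 0.12, adjusted p = 6.02e-05), which leaves its signal 47.0% below that of DMSO on a linear scale. The gap between its groups was far wider than the spread within either. Mmd2 passed under 13 of 14 alternatives, with an adjusted p of 0.0523 when all probe sets shared the error estimate. Its promoter window, 250 bases before to 50 after the annotated start, is chr5:142608703-142609002 (GRCm38.p6, minus strand, RefSeq). It is shown because Mmd2 had the largest change of the 23 mature astrocyte genes tested among the 37. Capitals mark the letters TTGGCA, the core bound by NFI factors, a family active in gliogenesis that includes Nfia.
Mmd2: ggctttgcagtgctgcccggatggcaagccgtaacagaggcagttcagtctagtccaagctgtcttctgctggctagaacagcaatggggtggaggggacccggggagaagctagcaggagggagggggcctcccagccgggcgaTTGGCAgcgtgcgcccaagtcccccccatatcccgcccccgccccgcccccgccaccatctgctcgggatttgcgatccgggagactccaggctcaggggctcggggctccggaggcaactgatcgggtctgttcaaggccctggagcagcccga

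Clu, which encodes the secreted chaperone clusterin, had 9.38 and 9.67 with olaparib, against 10.03 and 10.00 with DMSO. It fell by 0.49 (SE 0.12, adjusted p = 0.0190). Both olaparib arrays were low, the first more so. It passed under 10 of 14 alternatives, and its adjusted p was 0.345 in the absence of DMSO replicate 1, 0.242 in that of DMSO replicate 2, 0.0872 under median centring and 0.180 with all probe sets in the fit.

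The metallothioneins, small cysteine-rich proteins that bind zinc and copper, parted. Mt3, the brain form, had 9.45 and 9.77 with olaparib, against 10.11 and 10.02 with DMSO, and fell by 0.46 (SE 0.12, adjusted p = 0.0317). Mt1, the form that metals and stress induce widely, had 12.40 and 12.59 with olaparib, against 12.48 and 12.54 with DMSO, and its change of -0.01 (SE 0.12) had an adjusted p of 0.980. The olaparib arrays of Mt1 lay on either side of the DMSO pair, and its interval was -0.27 to 0.24. The difference between the 2 genes was itself not tested. Leaving out olaparib replicate 1 gave Mt3 a change of -0.29, and leaving out olaparib replicate 2 gave -0.62. Mt3 passed under 9 of 14 alternatives. Its adjusted p was 0.497 in the absence of DMSO replicate 1, 0.247 in that of DMSO replicate 2, 0.0610 without a filter, 0.125 under median centring and 0.221 with all probe sets in the fit. The promoter windows of both are shown because the genes are neighbours in 1 cluster and gave different values. They are chr8:94152357-94152656 for Mt3 and chr8:94178839-94179138 for Mt1 (GRCm38.p6, plus strand, RefSeq). Capitals mark the letters TGCNCNC (N is any base) on either strand, a loose pattern for the metal response element of metallothionein genes. At least 1 match was present in 50.4% of all promoters, and binding at these letters was not tested.
Mt3: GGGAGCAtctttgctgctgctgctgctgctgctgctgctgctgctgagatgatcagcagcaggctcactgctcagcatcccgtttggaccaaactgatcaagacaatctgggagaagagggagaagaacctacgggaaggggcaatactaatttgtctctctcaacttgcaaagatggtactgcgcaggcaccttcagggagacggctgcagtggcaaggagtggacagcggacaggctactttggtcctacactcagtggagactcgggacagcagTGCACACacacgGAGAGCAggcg
Mt1: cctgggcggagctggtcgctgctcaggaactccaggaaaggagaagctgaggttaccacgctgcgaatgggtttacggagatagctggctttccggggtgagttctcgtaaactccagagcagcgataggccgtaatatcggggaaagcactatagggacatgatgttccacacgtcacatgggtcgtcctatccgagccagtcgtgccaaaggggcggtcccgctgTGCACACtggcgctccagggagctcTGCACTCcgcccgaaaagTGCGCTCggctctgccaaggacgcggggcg

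Ntsr2, a neurotensin receptor of astrocytes, had 7.49 and 7.34 with olaparib, against 7.76 and 7.65 with DMSO. It fell by 0.29 (SE 0.09), at an adjusted p of 0.0481 that is close to the threshold. The groups were separate, but it passed under only 6 of 14 alternatives and did not pass without olaparib replicate 2 (adjusted p = 0.122), DMSO replicate 1 (0.539) or DMSO replicate 2 (0.140). Its adjusted p lay between 0.0589 and 0.244 in the other 5 in which it missed the threshold, which were no filter, cyclic loess normalization, median centring, eBayes without trend and all probe sets in the fit.

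The other members of this set did not pass. Ndrg2, an astrocyte gene of the N-myc downstream regulated family, differed by -0.29 (SE 0.13, adjusted p = 0.225). The calcium-binding protein gene S100b differed by 0.17 (SE 0.10, adjusted p = 0.377), the largest positive change among the 35. The cystatin C gene Cst3 differed by 0.12 (SE 0.12, adjusted p = 0.676). In S100b and Cst3 both olaparib arrays lay over both DMSO arrays. Sparcl1, a secreted matrix protein that promotes synapse formation, differed by -0.06 (SE 0.12, adjusted p = 0.884), and Itih3, which binds hyaluronan, by 0.01 (SE 0.08, adjusted p = 0.968).

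**Figure D3:**
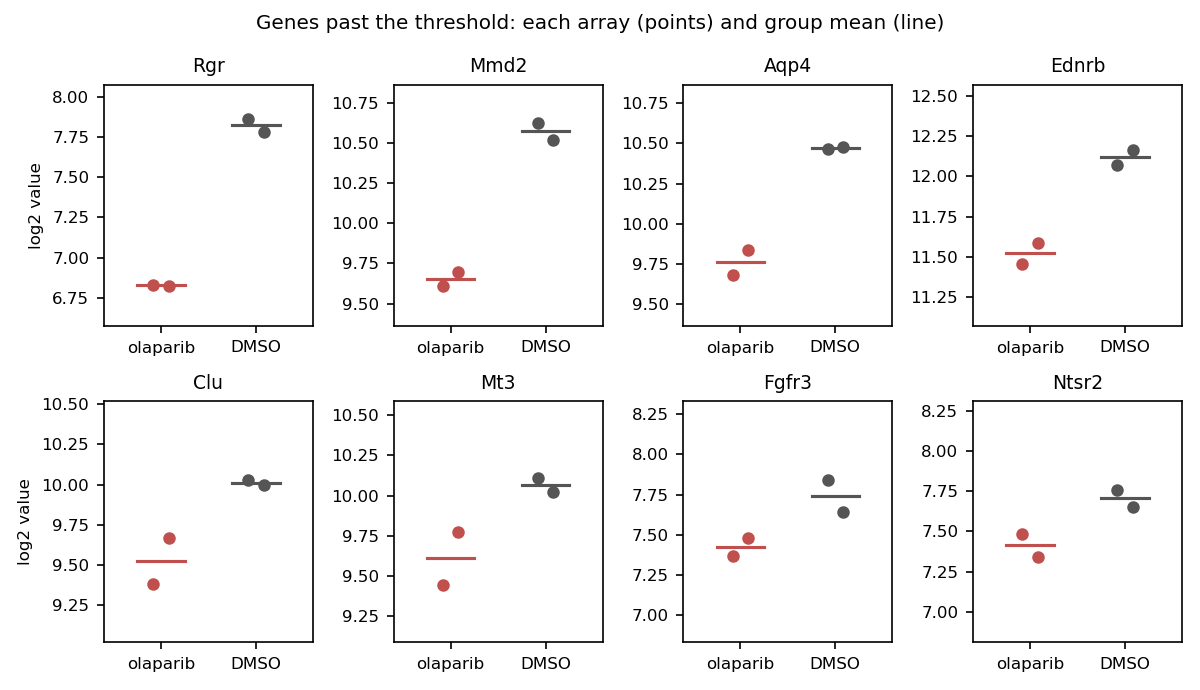
Log2 value on each array (points) and group mean (line) for the 8 genes past the threshold, with olaparib left of DMSO and axes of equal length. The groups are apart in all 8, by the most in Rgr and Mmd2, and the olaparib points of Clu and Mt3 are the farthest from each other.

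Among stem and progenitor genes, 2 of the 11 tested fell and 0 rose, with a median change of -0.11. Neither was a transcriptional regulator, of which 0 of 4 passed. Sox2, which maintains neural stem cells, had 9.55 and 9.63 with olaparib, against 9.78 and 9.85 with DMSO. The groups were apart, with a change of -0.23 (SE 0.11, adjusted p = 0.280). Sox9, which acts in stem cell maintenance and in gliogenesis, had 9.55 and 9.74 with olaparib, against 9.74 and 9.66 with DMSO. Its groups overlapped, with a change of -0.05 (SE 0.12, adjusted p = 0.885) and an interval of -0.30 to 0.19. Nr2e1 (TLX), an orphan nuclear receptor needed for stem cell renewal, had 8.05 and 8.20 with olaparib, against 8.21 and 8.14 with DMSO. These values overlapped too, and the change of -0.05 (SE 0.10) had an adjusted p of 0.866. Hopx, a homeodomain protein found in quiescent stem cells and astrocytes, differed by -0.28 (SE 0.09, adjusted p = 0.0594) and passed under 4 of 14 alternatives.

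Of the 7 receptors and matrix proteins tested, 2 fell. Ednrb, the endothelin B receptor of radial glia, astrocytes and SVZ progenitors, had 11.46 and 11.59 with olaparib, against 12.07 and 12.17 with DMSO. It fell by 0.60 (SE 0.12, adjusted p = 0.00462), or 33.8% on a linear scale, with a wide gap between the groups. It passed under 11 of 14 alternatives, with an adjusted p of 0.0880 without DMSO replicate 1, 0.205 without DMSO replicate 2 and 0.110 with all probe sets in the fit. Fgfr3, a fibroblast growth factor receptor of radial glia and astrocytes, had 7.37 and 7.48 with olaparib, against 7.84 and 7.64 with DMSO. It fell by 0.32 (SE 0.09, adjusted p = 0.0358), and here the DMSO arrays were the ones that lay farther from each other. It passed under 8 of 14 alternatives. Leaving out DMSO replicate 1 gave an adjusted p of 0.628, leaving out olaparib replicate 1 gave 0.0542, and testing without a filter, median centring, eBayes without trend and the fit of all probe sets gave 0.0922, 0.0726, 0.0606 and 0.239.

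Egfr, the epidermal growth factor receptor of activated stem cells and transit-amplifying progenitors, had 9.89 and 10.11 with olaparib, against 10.37 and 10.39 with DMSO. The groups were apart, and the change of -0.38 (SE 0.12) had an adjusted p of 0.0683, past the threshold under 5 of 14 alternatives. Prom1 (CD133), a stem cell surface protein that ependymal cells also carry, had 7.08 and 7.33 with olaparib, against 7.26 and 7.24 with DMSO. The olaparib arrays lay on both sides of the DMSO pair, with a change of -0.05 (SE 0.09, adjusted p = 0.842). The heparan sulphate proteoglycan gene Gpc1 differed by -0.11 (SE 0.08, adjusted p = 0.529), the tetraspanin gene Cd9 by 0.06 (SE 0.12, adjusted p = 0.869) and the tenascin C gene Tnc by 0.02 (SE 0.12, adjusted p = 0.969). Thbs4, a thrombospondin of SVZ astrocytes, had 6.44 and 6.35 with olaparib, against 6.42 and 6.34 with DMSO, under the signal at which genes were tested.

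Rgr changed the most of the 37. It had 6.83 on both olaparib arrays, against 7.86 and 7.78 with DMSO, and fell by 0.99 (SE 0.08, adjusted p = 2.53e-07). It was the single gene of the 37 that passed under all 14 alternatives. Its probe set was dim. The 19 measured marker genes of unrelated tissues had mean values from 5.99 to 7.77, with a median of 6.52 and an upper quartile of 6.71. The olaparib means of Rgr (6.83), Fgfr3 (7.42) and Ntsr2 (7.42) lie within that range, above its upper quartile. In that respect the size of these 3 changes is less certain than that of Aqp4, Mmd2 or Ednrb. Their SE, 0.08 to 0.09 against 0.12, is smaller but does not measure nearness to background. The promoter window of Rgr is chr14:37048965-37049264 (GRCm38.p6, minus strand, RefSeq), shown beside its change as the largest of the 37. It held no match of the 4 motifs searched, and so has no capitals.
Rgr: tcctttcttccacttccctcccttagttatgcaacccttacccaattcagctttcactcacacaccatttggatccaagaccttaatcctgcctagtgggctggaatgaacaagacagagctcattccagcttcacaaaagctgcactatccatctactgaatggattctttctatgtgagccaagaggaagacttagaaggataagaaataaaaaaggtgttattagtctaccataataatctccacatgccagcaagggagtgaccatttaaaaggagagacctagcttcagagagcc

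The mature astrocyte genes and the stem and progenitor genes were also summarised apart. Of the 23 mature astrocyte genes tested 5 fell, and of the 11 stem and progenitor genes 2 fell, or 21.7% and 18.2%. These 2, Ednrb and Fgfr3, are also genes of astrocytes, so the share of the stem and progenitor set depends on how they are grouped. The median changes of the 2 sets were -0.10 and -0.11. Negative changes were seen in 18 of 23 and in 9 of 11. Both olaparib arrays lay over both DMSO arrays in 4 of the 23 (Acsbg1, Dio2, S100b and Cst3) and in 0 of the 11. Of all genes tested, 23.2% had that order. Both lay under the DMSO arrays in 12 of the 23 and 5 of the 11, where 23.9% of all genes did. The medians shifted when single arrays were left out. They ran from -0.20 to -0.039 in the mature astrocyte genes and from -0.18 to -0.095 in the stem and progenitor genes. That of the mature astrocyte genes became -0.039 when olaparib replicate 1 was left out and -0.20 when olaparib replicate 2 was. That of the stem and progenitor genes became -0.18 in both cases. No test of the difference between the 2 sets was made.

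**Figure D4:**
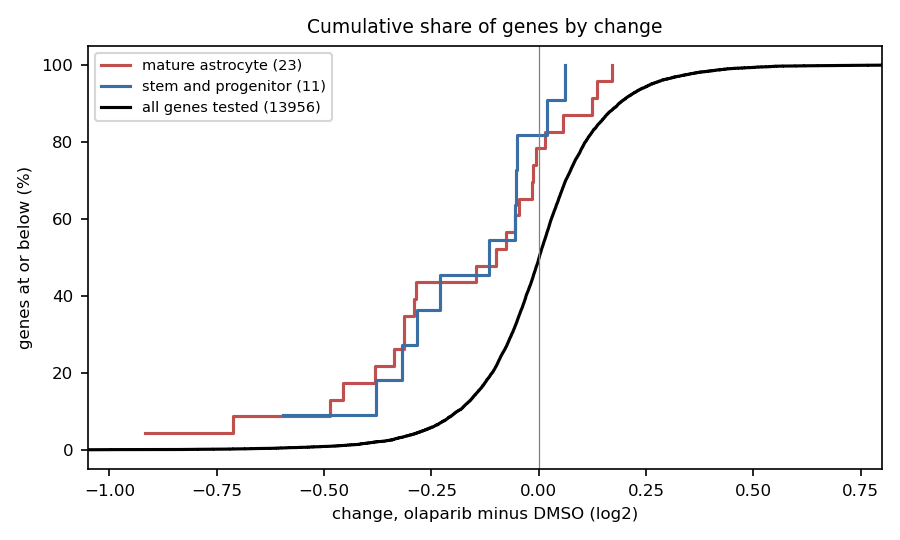
Cumulative share of genes (vertical axis, %) at or below a given change (horizontal axis, olaparib minus DMSO, log2) for the 23 mature astrocyte genes, the 11 stem and progenitor genes and all 13956 genes tested. The 2 coloured curves cross each other repeatedly and lie left of the black curve of all genes, with medians of -0.10, -0.11 and 0.0013.

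The olaparib arrays differed from each other in a way that touches these genes. Olaparib replicate 2 was above replicate 1 in 31 of the 35, by a median of 0.15, whereas DMSO replicate 2 was above replicate 1 in 16 of the 35, with a median difference of -0.02. The same order held across bright genes in general. Among all genes with a mean above 9, olaparib replicate 2 was the higher in 91.6% of 1710, by a median of 0.15, and in all 23 of the astrocyte and stem cell genes at that level. At lower levels it was the higher in 50.4% of all genes. The median change of the 1710 bright genes was 0.05, against -0.23 for the 23, and 3.22% of the 1710 fell, against 5 of the 23. Quantile and cyclic loess normalization, which equalize such differences between arrays, put 16 and 14 of the 35 past the threshold as lower, where 5.55% and 5.25% of all genes were lower. The additional genes under both were Gja1, Egfr, Mlc1, Slc6a11, Slc1a3, Ndrg2 and Sox2. The cause of the difference between the olaparib arrays was not tested.

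The calls also rest on the error that limma assigns from 2 residual degrees of freedom and a prior shared across rows. With all 21704 probe sets above the same signal in the fit, 0.0599% of them were lower, and of the 35 genes only Rgr was (adjusted p = 0.0230). The changes themselves are identical in that fit. Without DMSO replicate 1, 3 of the 35 were lower (Aqp4, Mmd2 and Rgr), where 1.15% of all genes were, and without DMSO replicate 2 there were 4, with Fgfr3 added, where 1.18% of all genes were. Without olaparib replicate 1 there were 8, where 6.0% of all genes were lower, and without olaparib replicate 2 there were 14, where 7.39% were. Across all these fits 0 of the 35 genes passed as higher.

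**Figure D5:**
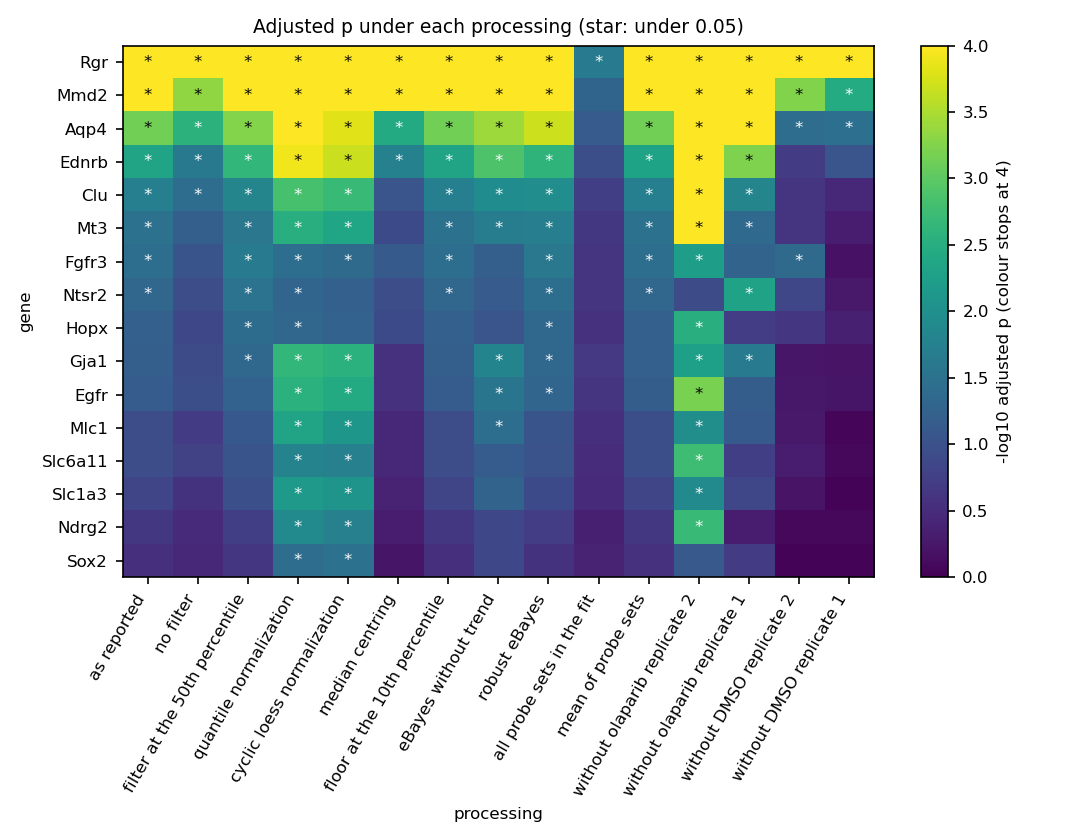
Adjusted p (colour, as -log10, which stops at 4) of the 16 genes that passed under at least 1 processing (rows), for the reported fit and the 14 alternatives (columns), with a star where it is under 0.05. Rgr has a star in every column, Mmd2 and Aqp4 in every column but that of all probe sets, and the lower rows mainly under quantile and cyclic loess normalization and without olaparib replicate 2.

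Other genes of the same cell types were taken from wider lists. Of 35 tested astrocyte genes outside the 37, 8 fell and 2 rose, with a median of -0.22. Gfap, the intermediate filament of astrocytes and SVZ stem cells, had 8.89 and 9.35 with olaparib, against 10.16 and 10.15 with DMSO. It fell by 1.03 (SE 0.13, adjusted p = 6.12e-05), with olaparib arrays far from each other but both under DMSO. Ttyh1, a chloride channel, fell by 0.72, the zinc transporter gene Slc39a12 by 0.47, the Toll-like receptor adaptor gene Tril by 0.48 and the glycine decarboxylase gene Gldc by 0.38. Vegfa, the vascular growth factor, rose by 0.39. The adjusted p of these 5 was at most 0.0124. Ttyh1 and Gldc no longer passed without DMSO replicate 1. Tril, Gldc and Vegfa no longer passed without DMSO replicate 2.

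Of 39 tested stem and progenitor genes outside the 37, 8 fell and 1 rose, with a median of -0.09. The hedgehog receptor gene Ptch1 fell by 0.67, Notch2 by 0.49, Id3 by 0.65, Nfia by 0.56 and Id4 by 0.36, while the cystine transporter gene Slc7a11 rose by 0.53. Their adjusted p was at most 0.0209. Id3, Nfia, Id4 and Slc7a11 did not keep an adjusted p under 0.05 in the absence of either DMSO array, nor did Ptch1 in that of replicate 1. The filament genes of stem cells did not pass: Nes differed by 0.23 (SE 0.10, adjusted p = 0.205) and Vim by 0.16 (SE 0.12, adjusted p = 0.549), with both olaparib arrays over both DMSO arrays in each. Among 18 transcription factors of glial fate, which share Id3 and Nfia with that list, 3 fell and 1 rose. Nfia, which starts gliogenesis in the embryo, had 10.28 and 10.47 with olaparib, against 10.94 and 10.93 with DMSO (adjusted p = 0.00803). Pou3f4 fell by 0.41 (adjusted p = 0.00869, and up to 0.190 with a DMSO array left out), and Atf3, a stress-induced factor, rose by 0.51 (adjusted p = 0.000387). Nfix differed by -0.42 (SE 0.13, adjusted p = 0.0552), Nfib by -0.10 (SE 0.13, adjusted p = 0.765) and Stat3 by -0.10 (SE 0.10, adjusted p = 0.682).

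Markers of the other cells that SVZ spheres can hold gave the following values. Of 14 neuron and neuroblast markers tested 5 fell and 0 rose (Dcx, Gad2, Nsg2, Celf3 and Map2, median -0.24), and the median level of the 14 was 7.03 and 7.06 with olaparib, against 7.39 and 7.37 with DMSO. Map2 did not pass in the absence of either DMSO array. Of 10 oligodendrocyte lineage markers 1 rose, Cspg4 by 0.33, and the median was 0.10. Of 11 proliferation markers Plk1 fell by 0.40 and Rrm2 rose by 0.37. Cspg4 and Rrm2 did not pass in the absence of either DMSO array, Plk1 did not pass without DMSO replicate 1, and Rrm2 did not pass without olaparib replicate 2. In limma 0 of 7 ependymal, 0 of 5 microglial and 0 of 4 vascular or fibroblast markers passed, with median levels of the tested markers on the 4 arrays between 6.87 and 6.93, 6.51 and 6.73, and 6.56 and 6.80. At an unadjusted p under 0.05 there were 1, 1 and 0. With all probe sets in the fit, Dcx alone passed among the genes outside the 37 that are named here. The part that a change in the makeup of the spheres has in these values was not tested.

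A RefSeq promoter window was available for 32 of the 37 genes and 27018 in all. Windows were missing for Aqp4 and Clu, which both fell, and for Gpc1, Sparcl1 and Sox9, so these genes were not searched. The NFI letters TTGGCA, searched on both strands, occurred in 4 of the 32 windows (Mmd2, Mt1, S100b and Aldoc) and in 14.4% of all promoters, and of these 4 genes Mmd2 alone fell. Mt3, Mt1, Ednrb, Slc6a11 and Thbs4 held 3 matches of the loose pattern TGCNCNC each, a number that 6.95% of all promoters reach. At least 1 match was present in 19 of the 32 windows and in 50.4% of all promoters. In the Mt1 window all 3 began between 23 bases before the annotated start and base 21 after it. In the Mt3 window 1 of the 3 lay at the far end, 250 bases before the annotated start. Only the first listed window of a gene was searched, so these positions hold for that annotated start alone. A dimer site of STAT factors (TTCNNNGAA, the same on both strands) was found in Acsbg1, Ntsr2 and Slc1a3, 3 of 32, and in 8.47% of all promoters. The SOX letters AACAAT, searched on both strands, were found in 0 of 32 windows and in 10.9% of all promoters. Matches of different motifs shared 0 bases in the 4 windows printed. A match of letters in a window is a description of the sequence and was not tied to the changes by a test.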

How the data were processed

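Biotin-labelled product amplified from 40 ng of RNA was hybridised to Affymetrix arrays, per the labels' protocols. The deposited values are the authors' log2 values per probe set and array. Their background correction, normalization and summarisation are not stated in the labels. Of 34760 probe sets, the platform annotation gives 21640 a single gene and 1321 several, and it does not list 11799. A gene was named only from a probe set with a single gene. Symbols were updated by Entrez ID to RefSeq (GRCm38.p6) for 19855 of 19937 genes. The brightest probe set by mean stood for a gene, and of the 37 Glul alone had another.

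The 13956 genes with a mean above the 30th percentile entered a two-sided moderated test in limma 3.58.1 (R 4.3.3; lmFit, then eBayes with an intensity trend), and p-values were adjusted over all of them by Benjamini-Hochberg. Every adjusted p, SE and 95% interval is limma's. The labels give no batch, and replicate numbers, given in accession order, pair nothing. The fit was also run on simulated data with independent errors of equal spread in both groups, drawn from limma's own prior. It recovered 55%, 95.6% and 100% of changes of 1.3, 1.5 and 2 fold, with 4.06% false calls. These data lack the difference seen between the olaparib arrays, so the run does not check the calls made here. The genes, the lists, the split by a mean of 9 and the motifs were chosen with earlier results of these data known. Genes outside the 37 were named where past the threshold, at most 6 per list by smallest p. Nfix, Nfib, Stat3, Nes and Vim were added with their values known. The alternatives were no filter, a filter at the 50th percentile, a floor at the 10th percentile, quantile and cyclic loess normalization, median centring, robust eBayes, eBayes with no trend, all 21704 probe sets in the fit, averaging the probe sets of each gene, and leaving out each array, after which the lone array is assumed to vary like the other group. Without a DMSO array the error comes from the olaparib pair, whose median SD was 0.077 against 0.048 for DMSO. Python 3.11.15 and matplotlib 3.10.9 were used for the figures.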

Additional observations from a re-analysis of the deposited data

How the results depend on the processing

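All 8 genes that fell kept their direction under the 14 alternatives, but most of these could not have changed it. A change of filter, floor, error estimate or probe set averaging left the 8 changes as they were. Leaving out an array cannot reverse groups that do not overlap. The floor also left every adjusted p of the 35 as reported, so it adds a pass to the tally of each gene that fell. Under the alternatives that kept all 4 arrays, 0 of the 35 tested passed as higher. The number lower, 8 as reported, was 5 without a filter, 4 under median centring, 16 under quantile and 14 under cyclic loess normalization, 1 with all probe sets in the fit, and between 3 and 14 with an array left out. Over all genes, 397 were higher and 471 lower as reported. Lower were 316 of the 19937 genes without a filter and 368 of 13956 under median centring. There were 257 higher without a filter, 774 lower under quantile and 732 lower under cyclic loess normalization, 1 higher and 11 lower with all probe sets in the fit, and between 97 and 1274 higher and 161 and 1032 lower with an array left out. The median of the mature astrocyte genes ran from -0.20 to -0.039 with an array left out. Of the 35 changes, 11 near 0 turned sign, none of them past the threshold on either side. Cd9 was at -0.0048 and Tnc at -0.0083 under quantile normalization, and Tnc at -0.0038 under cyclic loess. With an array left out the ranges were -0.071 to 0.058 for Slc4a4, -0.20 to 0.17 for Aldh1l1, -0.18 to 0.026 for Glul, -0.11 to 7.1e-05 for Sparcl1, -0.053 to 0.082 for Itih3, -0.11 to 0.083 for Mt1, -0.15 to 0.037 for Sox9, -0.13 to 0.024 for Nr2e1, -0.18 to 0.072 for Prom1, -0.027 to 0.15 for Cd9 and -0.15 to 0.19 for Tnc. The cause of these differences was not tested. No paired fit was made, because the titles relate arrays only within a group and the replicate numbers used here follow accession order, so nothing links an olaparib array to a DMSO array. Signal over background limits Gjb6, Thbs4, Slc7a10 and Itih3, which lay near or under the signal at which genes were tested.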
